A study of Mus musculus with 6 samples.

Results

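Hox cluster genes were examined as a check of position in the head ectoderm of mouse embryos with and without Pax6. Members were all probes whose platform symbol was Hoxa, Hoxb, Hoxc or Hoxd followed only by digits. This gave 52 probes for 37 genes, of 46632 probes and 17711 genes with 1 symbol, 9 genes in the Hoxa cluster, 10 in Hoxb, 9 in Hoxc and 9 in Hoxd. Wild type samples were lens placode of 3 embryos and Pax6-/- samples were surface ectoderm of 3 embryos, all at embryonic day 9.5 on a mixed FVB and 129 background. Each array held laser-dissected prospective lens tissue from the left and right eye of a single embryo, so the replicates are embryos. The labels do not name the deleted part of Pax6 and give no sex.

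Hox genes encode homeodomain transcription factors that lie in 4 clusters on different chromosomes. Within a cluster, genes of low paralog number are expressed from the hindbrain backwards and genes of high number towards the tail, an arrangement called collinearity. The ectoderm and forebrain of the head in front of the hindbrain are known to lack Hox expression, and the lens arises there. Pax6 is a paired-domain factor needed for the lens.

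Pax6 itself was 9.31 ± 0.31 in knockout and 10.05 ± 0.33 in wild type by its brightest probe (mean ± SD of normalized log2 intensity, n = 3 each; limma adjusted p = 0.428), so the targeted gene did not pass the test. Whether its probe lies in the deleted part is not given, so this does not check the genotype labels. Xist, which marks cells with 2 X chromosomes, was detected on 3 of 3 wild type and 0 of 3 knockout arrays. Genotype and sex therefore cannot be told apart in any comparison. Of 12 surface ectoderm and lens placode markers, 11 were detected on all 6 arrays, and Foxe3, a lens forkhead gene, on 0. Of the 11 tested, 8 were lower and 3 higher in knockout, where 50.4% of everything tested was higher. The 2 that passed were both lower, Maf (log2 change -3.86, SE 0.31, limma adjusted p = 0.00477) and Prox1 (log2 change -2.22, SE 0.28, limma adjusted p = 0.0337). Knockout 1 had the dimmest array, with a median signal of 41.7 against 47.3 to 49.8 on the other 5. In all, 23 of 14686 genes and unnamed probes passed a Benjamini-Hochberg adjusted p of 0.05 in the limma fit, 0.157% of those tested.

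Most Hox genes were at background in both genotypes. A probe counts as detected where its detection p, the share of negative control beads at least as bright, was under 0.05. By this measure 41 of the 52 Hox probes were detected on 0 of 6 arrays, and 26 of the 37 genes had no detected probe on any array. The number of Hox probes detected was 6, 4 and 6 on wild type arrays 1, 2 and 3, and 6, 5 and 8 on knockout arrays 1, 2 and 3. The ranges overlap, with means of 5.33 ± 1.15 and 6.33 ± 1.53 (SD, n = 3). As shares these are 7.69% to 11.5% in wild type and 9.62% to 15.4% in knockout.

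The level of background was read from odorant receptor genes, which are expressed by sensory neurons of the nose. Of their 1090 probes, 6.51% to 8.72% were detected per wild type array and 6.42% to 7.52% per knockout array, against 38.8% to 41.6% of all probes on the 6 arrays. The Hox share was above that of odorant receptors on 5 of 6 arrays and below it on wild type 2. Over the 6 arrays together, 11.2% of Hox values were detected against 7.17% of odorant receptor values. Detection on all 6 arrays was seen for 3 Hox probes (5.77%), for 35 odorant receptor probes (3.21%) and for 29.1% of all probes. These shares are descriptions of the probe sets and were not tested.

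**Figure D1:**
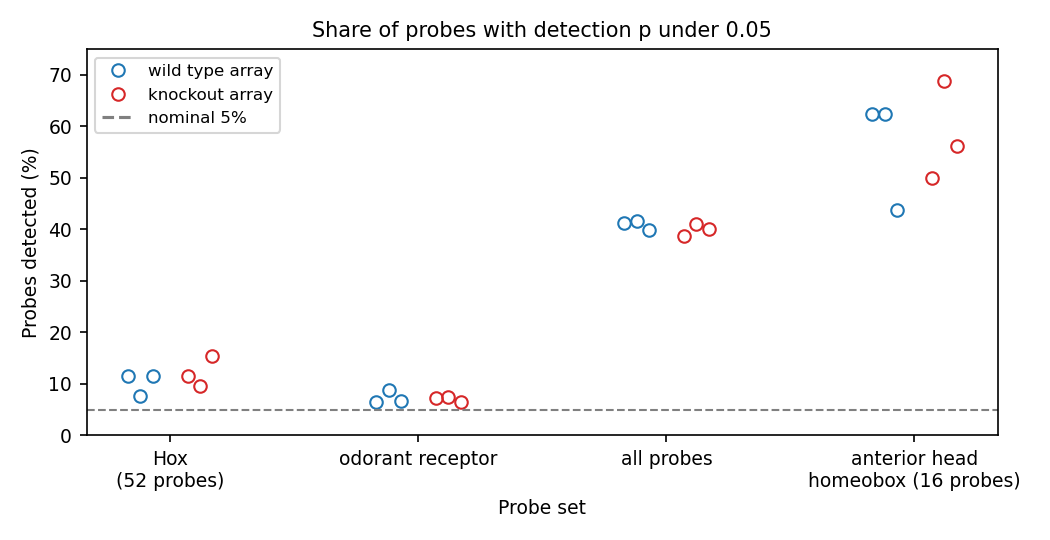
Share of probes with a detection p under 0.05 (percent, vertical axis) for 4 probe sets, with each point 1 array, wild type in blue and knockout in red. Hox probes lie between 7.69% and 15.4%, odorant receptor probes between 6.42% and 8.72%, both above the dashed line at 5%, and anterior head homeobox probes between 43.8% and 68.8%.

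Homeobox genes of the anterior head were detected on the same arrays. This list of 11 genes holds the genes that pattern the forebrain, eye and midface, and 16 probes represent it. Between 7 and 11 of these probes were detected per array. The head factor Otx1 and its relative Otx2, the eye field genes Six3, Six6 and Rax, and the craniofacial gene Alx4 were detected on all 6 arrays by their brightest probes. Lhx2 was detected on 5 arrays, Alx1 on 3, Emx2 and Hesx1 on 1 each and Vax2 on 0. Otx1 read 8.07, 8.61 and 8.28 in wild type and 7.81, 7.81 and 7.48 in knockout, lower without overlap (log2 change -0.62, SE 0.22, limma adjusted p = 0.552). Otx2 read 6.55, 7.01 and 6.36 in wild type and 7.05, 7.70 and 7.49 in knockout. Its knockout values lie above its wild type values, a difference that did not pass (log2 change 0.77, SE 0.31, limma adjusted p = 0.631). Of the 8 members tested, 6 were higher and 2 lower in knockout, where 50.4% of everything tested was higher, and 0 passed.

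Detection was spread unevenly over the clusters and positions. The Hoxb cluster had 6 of its 13 probes detected on 1 or more arrays, and the other 3 clusters together had 5 of 39. Across all probes this share was 54.1%, and for odorant receptors it was 14%. By paralog group, 11 of 37 probes of groups 1 to 9 and 0 of 15 probes of groups 10 to 13 were detected on any array. The tail-most groups, which pattern the lumbar and tail regions, limbs and genitalia, were thus at background on all 6 arrays, Hoxa10, Hoxa11, Hoxb13, Hoxc10 to Hoxc13 and Hoxd10 to Hoxd13 alike. Groups 1 to 3, whose genes pattern the hindbrain and the pharyngeal arches, had no probe detected on more than 3 arrays. Hoxa2, Hoxa3, Hoxd1 and Hoxd3 of these groups were detected on 0 arrays. Hoxb2 was detected on knockout 1 alone and Hoxb3 on wild type 3 alone.

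**Figure D2:**
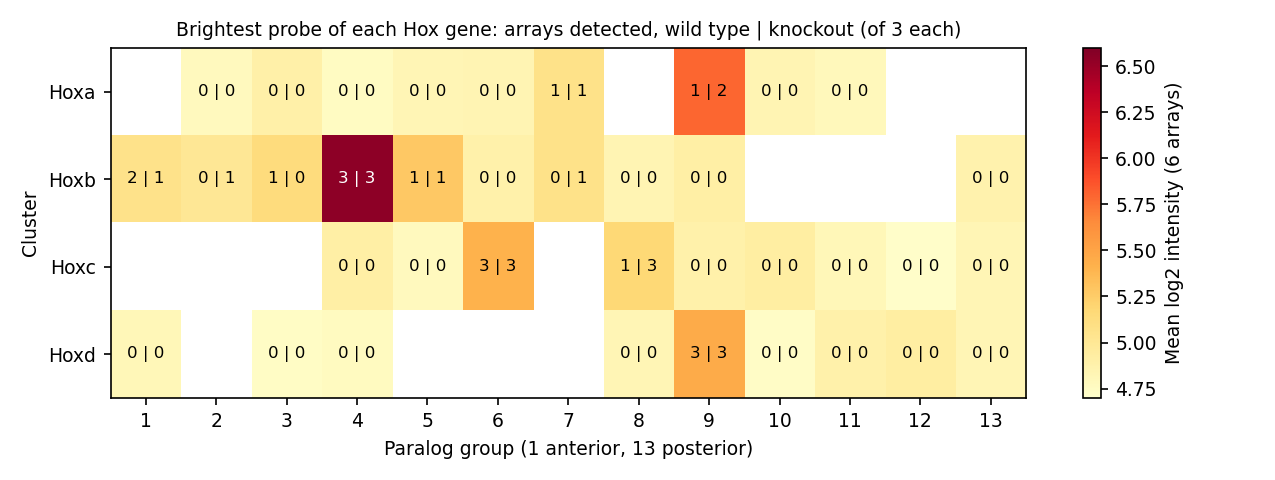
Hox genes by cluster (rows) and paralog group (columns), coloured by the mean normalized log2 intensity of the gene's brightest probe over 6 arrays, with the number of arrays detected in wild type and in knockout, of 3 each. Blank squares hold no gene analysed here, and levels of different probes are not comparable. Hoxb4, Hoxc6 and Hoxd9 are detected on 3 arrays of each genotype.

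In wild type 4 probes were detected on at least 2 of 3 arrays, those of Hoxb1, Hoxb4, Hoxc6 and Hoxd9. In knockout 5 were, those of Hoxa9, Hoxb4, Hoxc6, Hoxc8 and Hoxd9. The same rule took 40.3% of all probes in wild type and 39.3% in knockout. The 3 genes Hoxb4, Hoxc6 and Hoxd9 were common to both. Of the others, Hoxa9 was bright on 2 arrays, and Hoxc8 and Hoxb1 were detected with a p no lower than 0.0337 and 0.0381.

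The 250 bases before the RefSeq start of Hoxb4, Hoxd9, Hoxa9 and Hoxb1 are shown because these are the members detected on at least 2 arrays of a genotype for which RefSeq gave a window (GRCm38.p6). Each runs 5′ to 3′ on the strand of the gene, at chr11:96318017-96318266 (plus) for Hoxb4, chr2:74697513-74697762 (plus) for Hoxd9, chr6:52227371-52227620 (minus) for Hoxa9 and chr11:96365508-96365757 (plus) for Hoxb1. Capitals mark each CG and, in Hoxb1, the match to TGATNNAT.
Hoxb4: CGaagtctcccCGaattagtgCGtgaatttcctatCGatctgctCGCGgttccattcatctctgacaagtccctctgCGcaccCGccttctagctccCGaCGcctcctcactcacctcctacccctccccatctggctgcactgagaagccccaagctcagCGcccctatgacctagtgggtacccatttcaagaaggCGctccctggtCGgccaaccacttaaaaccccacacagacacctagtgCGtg
Hoxd9: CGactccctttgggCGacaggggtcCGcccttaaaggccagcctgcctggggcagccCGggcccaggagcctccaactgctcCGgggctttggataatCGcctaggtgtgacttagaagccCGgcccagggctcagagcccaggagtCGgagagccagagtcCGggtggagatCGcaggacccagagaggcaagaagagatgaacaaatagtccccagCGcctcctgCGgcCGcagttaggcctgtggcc
Hoxa9: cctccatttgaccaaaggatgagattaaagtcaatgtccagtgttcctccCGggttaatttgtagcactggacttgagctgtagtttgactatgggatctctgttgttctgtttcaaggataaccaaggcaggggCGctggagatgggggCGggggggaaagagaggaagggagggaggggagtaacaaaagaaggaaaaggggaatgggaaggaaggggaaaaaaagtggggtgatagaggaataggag
Hoxb1: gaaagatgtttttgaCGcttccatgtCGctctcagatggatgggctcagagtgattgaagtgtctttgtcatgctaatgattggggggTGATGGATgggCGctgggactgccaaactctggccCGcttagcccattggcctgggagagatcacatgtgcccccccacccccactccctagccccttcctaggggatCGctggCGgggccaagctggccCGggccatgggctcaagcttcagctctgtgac

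CG dinucleotides are frequent at promoters that Polycomb proteins keep silent, and Hox promoters are known for them. Windows were at hand for 21 of the 37 Hox genes, 23 windows in all since Hoxa10 and Hoxd11 have 2 starts each. Their median was 12 CG per 250 bases, with a range of 2 to 31, against a median of 6 over 32841 windows of the genome, of which 92.1% hold at least 1 CG. The windows shown hold 14 CG for Hoxb4, 13 for Hoxd9, 7 for Hoxb1 and 3 for Hoxa9, so detected members lie on both sides of the Hox median. TGATNNAT, the form of site that Hox and Pbx proteins bind together, was searched on both strands, and its free bases can themselves be a CG. It occurs in 4 of the 23 Hox windows, those of Hoxa2, Hoxb1, Hoxb8 and 1 of Hoxd11, and in 7.69% of all windows. A match describes letters only.

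Hoxb4, a group 4 gene of the hindbrain, spinal cord and blood stem cells, was detected on all 6 arrays. Its single probe read 6.48, 6.47 and 6.43 in wild type 1, 2 and 3 and 6.75, 6.56 and 6.59 in knockout 1, 2 and 3. The knockout values lie above the wild type values by a narrow margin, and the genotypes do not overlap. The log2 change was 0.17 (SE 0.28, 95% interval -0.47 to 0.82, limma adjusted p = 0.96), so no difference passed, and a fold between 0.72 and 1.77 remains compatible with the fit. Scaling each array by its median turned the change to -0.009, with the median of all tested at -0.15 under that scaling.

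The raw signal of Hoxb4 was nearly flat. It ran from 117 to 127 on the 6 arrays, each a mean over 31 to 48 beads with a standard error of 3.85 to 5.18 between beads. Detection p lay between 0.00437 and 0.00686, which corresponds to 7 to 11 of 1603 negative control steps. The SD of its normalized values over the 6 arrays was 0.12, smaller than that of nearly all of the 1973 detected probes within 0.25 of its level, of which 1.12% had a smaller SD and whose median SD was 0.46. The fit borrows from that common spread, so its SE exceeds the SD of either genotype, 0.03 and 0.10.

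Hoxc6, a group 6 gene of the thoracic region, was likewise flat by the detected probe of its pair. That probe read 5.38, 5.37 and 5.36 in wild type and 5.48, 5.44 and 5.43 in knockout, again without overlap. Its log2 change was 0.08 (SE 0.16, 95% interval -0.29 to 0.45, limma adjusted p = 0.974), and its SD of 0.05 over the 6 arrays was undercut by 0.588% of the 4936 detected probes at its level. Its detection p was 0.0200 to 0.0274. The second Hoxc6 probe was detected on 0 arrays, with a detection p of at least 0.896 on each.

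Hoxd9, a group 9 gene of the posterior trunk and limb, read 5.61, 5.41 and 5.41 in wild type and 5.51, 5.47 and 5.32 in knockout by its single probe. The genotypes overlap, and the log2 change was -0.04 (SE 0.18, 95% interval -0.45 to 0.36, limma adjusted p = 0.987). Its raw signal was 62.5 to 77 and its detection p 0.0156 to 0.0331, and 5.02% of the 4743 detected probes at its level had a smaller SD.

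**Figure D3:**
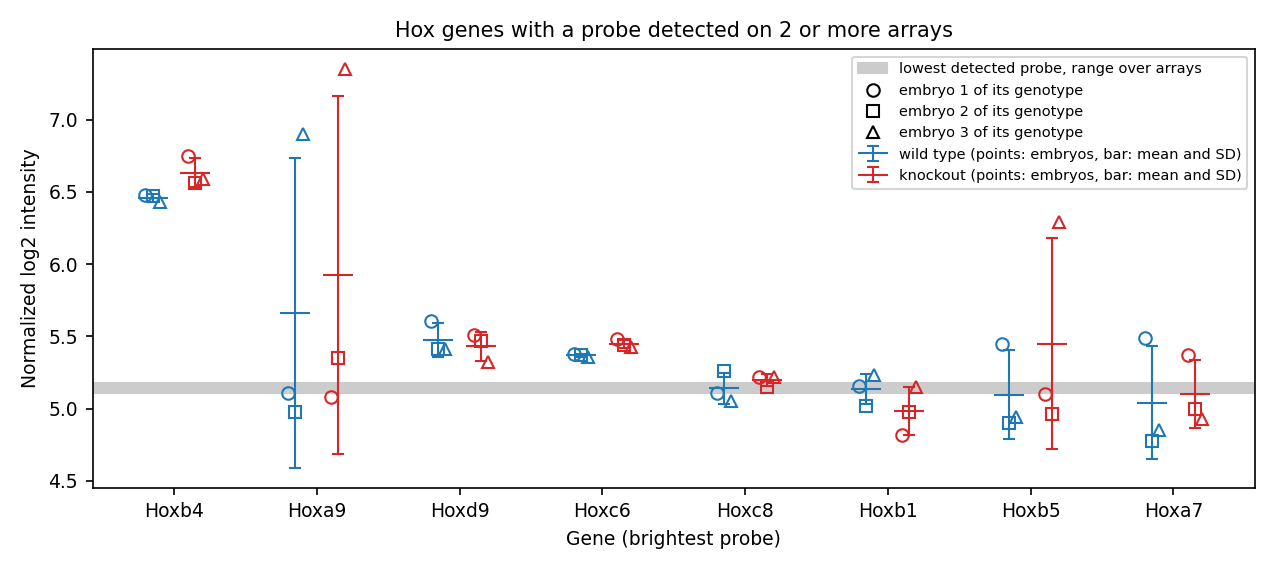
Normalized log2 intensity (vertical axis) of the brightest probe of the 8 Hox genes with a probe detected on 2 or more arrays, wild type in blue and knockout in red. Points are embryos, bars are means with SD (n = 3), and the grey band is the range over arrays of the lowest detected value, 5.11 to 5.18. Hoxa9 is high on 1 array of each genotype, Hoxb5 on knockout 3, and Hoxb4 is nearly flat.

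Hoxa9, a group 9 gene of trunk, limb and blood progenitors, was bright on 1 array of each genotype. Its brightest probe read 5.11, 4.98 and 6.90 in wild type 1, 2 and 3 and 5.08, 5.35 and 7.35 in knockout 1, 2 and 3. Wild type 3 and knockout 3 stand 1.81 and 2.26 above the median of the other 4 arrays, and the genotypes overlap. The raw signal was 159 with a bead standard error of 7.37 over 29 beads in wild type 3, and 195 with 7.58 over 46 beads in knockout 3, against 46.6 to 66.6 on the other 4 arrays. The log2 change was 0.26 (SE 0.69, 95% interval -1.32 to 1.85, limma adjusted p = 0.982).

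The rise of Hoxa9 was seen with 1 of its 3 probes. On wild type 3 and knockout 3 the second probe read 5.03 and 4.97 and the third 4.88 and 4.82, and both were detected on 0 of 6 arrays. Among all 46632 probes, 7 stood at least 1 log2 unit above the other 4 arrays on both of these, and the other 8 pairings of a wild type with a knockout array gave 2 to 14 such probes. Hoxa9 gave the only Hox probe of this kind in any of the 9 pairings. Red cell markers had their lowest summed intensity on wild type 3 (635) and their highest on knockout 3 (3503), with 1106 to 2239 on the other arrays. Their part in the value of Hoxa9 was not tested. Without wild type 3, knockout 2 or knockout 3 the probe no longer passed the filter on dim probes, and the change was -0.016 without wild type 1, -0.076 without wild type 2 and 0.7 without knockout 1.

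Hoxc8 and Hoxb1 crossed the detection threshold on some arrays and not on others. Hoxc8, a group 8 gene of the thoracic region, read 5.11, 5.26 and 5.05 in wild type and 5.22, 5.15 and 5.22 in knockout by its detected probe. It counted as detected on 1 wild type and 3 knockout arrays, yet the values overlap and the log2 change was 0.06 (SE 0.13, 95% interval -0.24 to 0.36, limma adjusted p = 0.979). Its detection p ran from 0.0337 to 0.0880, so its values lie close to the threshold on both sides. The second Hoxc8 probe was detected on 0 arrays.

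Hoxb1, the gene of the fourth rhombomere of the hindbrain, read 5.16, 5.02 and 5.23 in wild type and 4.82, 4.98 and 5.15 in knockout. It was detected on 2 wild type arrays and 1 knockout array, and the genotypes overlap. The log2 change was -0.15 (SE 0.13, 95% interval -0.46 to 0.15, limma adjusted p = 0.89), and its detection p ran from 0.0381 on wild type 3 to 0.561 on knockout 1, where it was at background.

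Hoxb5 and Hoxa7 were detected on 2 arrays each and did not enter the filtered fit. Hoxb5, a group 5 gene of the neck and vagal region, read 5.45, 4.90 and 4.94 in wild type and 5.10, 4.96 and 6.29 in knockout. Knockout 3 stands highest, at a raw signal of 109 with a bead standard error of 4.00, followed by wild type 1 at 70.8 with 3.31. The same pair of arrays had the most detected members of 9 tailbud, somite and trunk mesoderm markers, 3 on wild type 1 and 2 on knockout 3, with 1 on knockout 2 and 0 on the other 3. Of all probes, 41.3% were detected on wild type 1 and 40% on knockout 3. On wild type 1 the detected markers Tcf15, Uncx and Myf5 read 5.15 to 5.22, close to the lowest detected value of 5.12. On knockout 3 Uncx and Myf5 read 5.18 and 5.27, beside a lowest detected value of 5.15. The summed intensity of that list was 267 to 286 on all 6 arrays, its markers Tbx6, Msgn1, Meox1, Meox2, Mesp2 and Tbx18 were detected on 0 arrays, and its part in the value of Hoxb5 was not tested. Hoxa7 read 5.49, 4.78 and 4.85 in wild type and 5.37, 5.00 and 4.93 in knockout by its brighter probe, high on wild type 1 and knockout 1. Its other probe was detected on 0 arrays.

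The remaining 3 genes with any detection passed on a single array each. Hoxb2, a hindbrain gene, reached a detection p of 0.0455 on knockout 1. Hoxb3, of the hindbrain and pharyngeal arches, reached 0.0187 on wild type 3, and Hoxb7, of the trunk, 0.0412 on knockout 3. The 41 probes detected nowhere had means over 6 arrays of 4.71 to 4.94 with a median of 4.82, beside a median of 4.81 to 4.83 per array for odorant receptor probes.

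Among genes with several probes, no detected probe was backed by a second probe of its gene. The 11 genes with more than 1 probe hold 26 probes. In 6 of these genes (Hoxa7, Hoxa9, Hoxb3, Hoxb7, Hoxc6 and Hoxc8) a probe was detected on some array, and in 0 genes was more than 1 probe detected. Hoxb1, Hoxb2, Hoxb4, Hoxb5 and Hoxd9 have 1 probe each, so their detection has no second probe to compare.

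**Figure D4:**
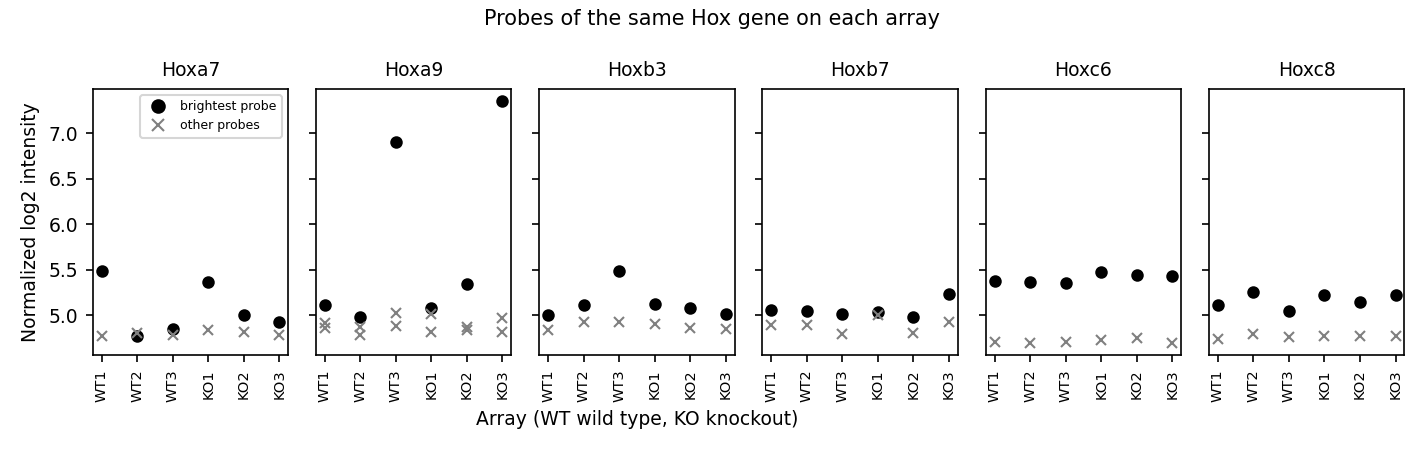
Normalized log2 intensity (vertical axis) on each array of the probes of 6 Hox genes that have several probes, of which 1 was detected. Filled circles are the brightest probe and crosses the others, which stay at background on wild type 3 and knockout 3, where the brightest Hoxa9 probe reads 6.90 and 7.35.

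No Hox gene differed between genotypes by the test. Of the 37 genes, 6 passed the filter of detection on at least 3 arrays, which took 41.6% of all probes. In the limma fit over all genes 0 of these 6 passed an adjusted p of 0.05, and 0 had an unadjusted p under 0.05, a level that 7.44% of everything tested reached. Of the 6, 4 were higher and 2 lower in knockout, where 50.4% of everything tested was higher, and their median change was 0.07 beside 0.002 over all tested. The genotypes did not overlap for 2 of the 6, Hoxb4 and Hoxc6, and for 12.1% of everything tested. By the 95% intervals, a change of more than 0.46 in either direction lies outside the interval for Hoxb1, Hoxc6, Hoxc8 and Hoxd9, while the interval of Hoxa9 holds changes of up to 1.85. These bounds hold for this processing and for probes close to background. Hoxb1 had a wild type mean of 5.14, beside a median of 4.82 for Hox probes detected on 0 arrays. Its interval therefore also holds a fall to background. On the authors' normalized, background-subtracted values the change of Hoxb1 was -0.44 with an SE of 0.32. On the same values the SE was 0.25 for Hoxc6, 0.26 for Hoxc8 and 0.27 for Hoxd9.

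A fit of all 46632 probes with no filter gave the same picture for the other members. There 0 of 52 Hox probes passed, with adjusted p-values of 0.891 to 0.999, where 0.015% of all probes passed. A single Hox probe, of Hoxa10, had an unadjusted p under 0.05 (limma adjusted p = 0.891, log2 change 0.08), a level reached by 5.34% of all probes. That probe was detected on 0 arrays. Of the 52 probes, 47 differed by less than 0.1 between genotypes and the largest difference was 0.35, for Hoxb5. The genotypes did not overlap for 5 of 52, where 10.8% of all probes did not. By sign, 37 were higher and 15 lower in knockout against 50.8% higher among all probes, with a median difference of 0.015 against 0.001 over all probes. Values at background carry a bound only, so a real change below the detection limit would not be seen.

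Most genes beside the clusters were detected. Taking the nearest 5 protein-coding genes with a probe on each side of each cluster, 27 of 40 neighbours were detected on all 6 arrays and 8 on 0. This counts the brightest probe of each gene. Of all probes, 29.1% were detected on all 6 arrays, a share per probe and not per gene. Among the 8 were Evx1 and Evx2, homeobox genes at the ends of the Hoxa and Hoxd clusters that are expressed with posterior Hox genes, and the erythroid factor Nfe2. Next to Hoxa, the adaptor gene Skap2 read 6.66 in wild type and 6.88 in knockout. Next to Hoxc, Smug1, a DNA repair glycosylase, read 7.62 and 7.79, and Calcoco1, a coactivator, 8.81 and 8.89. Hoxd adjoins Evx2 and Mtx2, a mitochondrial import gene that was detected on 5 arrays and read 5.46 and 5.70. Lnpk, of the endoplasmic reticulum, lies beyond Evx2 and read 6.37 and 6.01. Next to Hoxb, Skap1 and Ttll6 adjoin the cluster and were detected on 2 and 0 arrays. No neighbour that entered the filtered fit passed the limma test between genotypes, where 0.157% of everything tested did. Evx1, Evx2, Nfe2, Skap1 and Ttll6 were among those that did not enter it and were not tested. The antisense transcript Hoxd3os1 of the Hoxd cluster was detected on 0 arrays by either of its 2 probes.

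**Figure D5:**
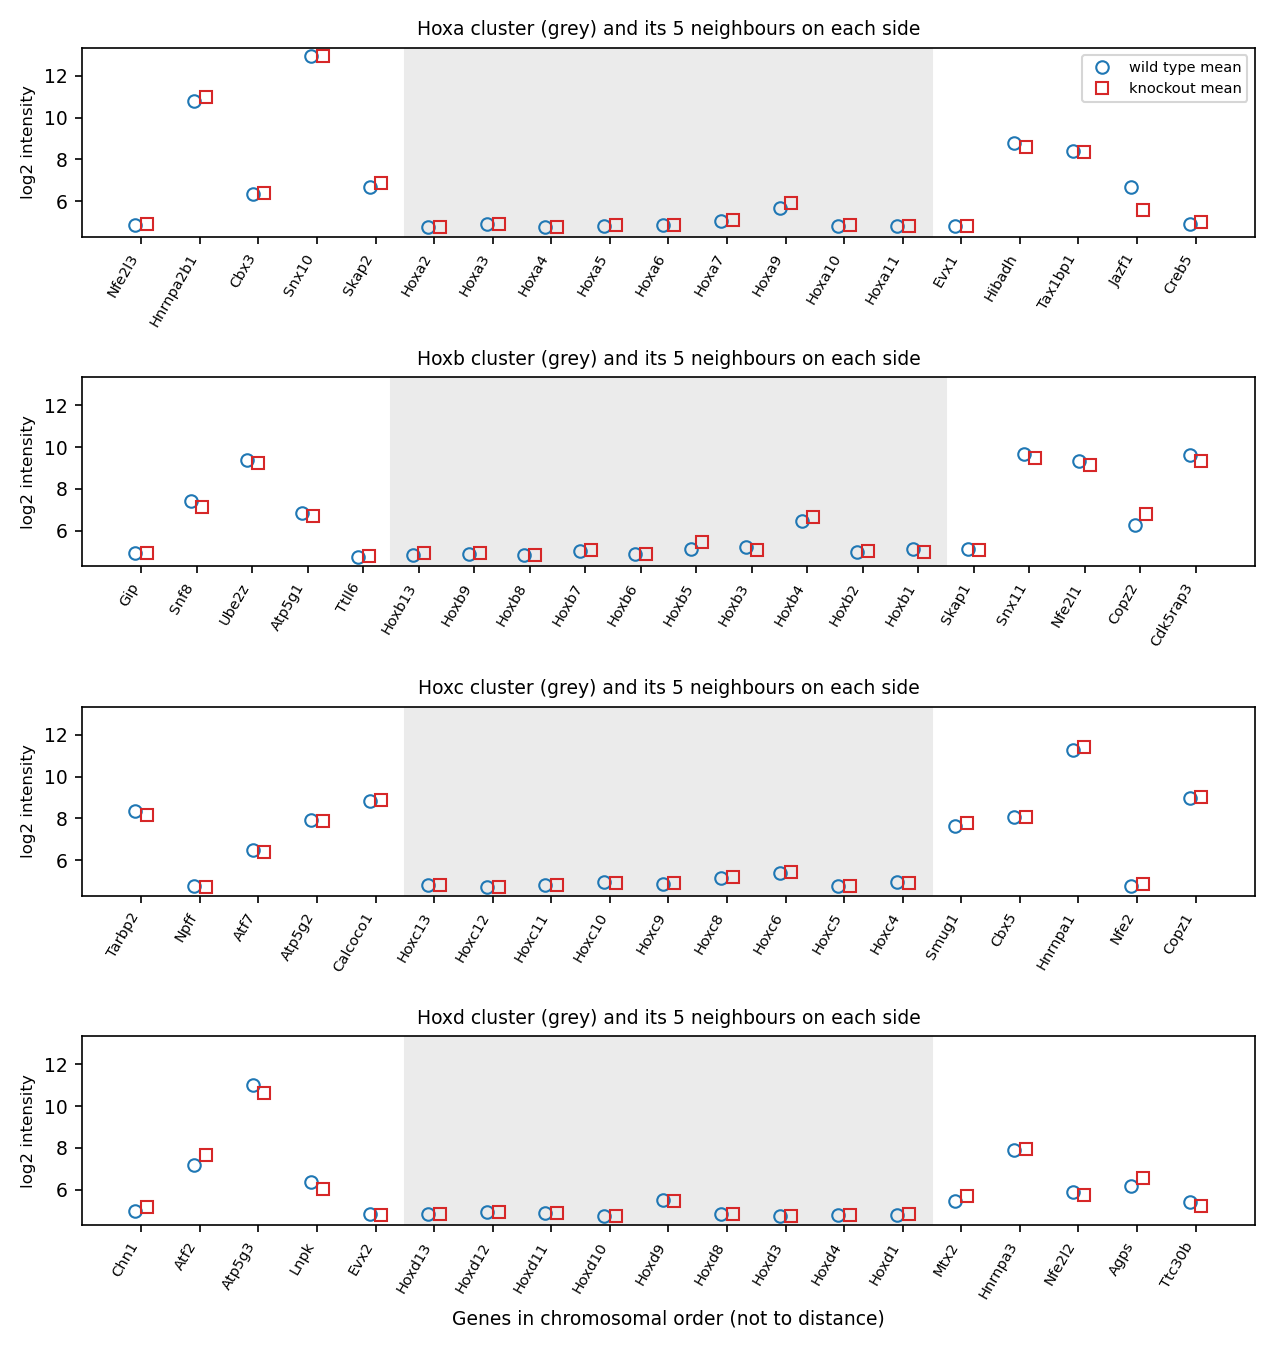
Mean normalized log2 intensity (vertical axis, n = 3 per genotype) of the brightest probe of each gene, in order of gene start along the chromosome, for the Hox genes with a probe in the 4 clusters (grey) and 5 neighbours on each side. Wild type means are circles and knockout means squares, and 27 of the 40 neighbours were detected on all 6 arrays.

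The partners of Hox proteins were present. The TALE homeodomain cofactors Pbx and Meis bind DNA with Hox proteins and also act without them. Of 7 such genes with a probe, 5 were tested. Pbx2, Meis1, Meis2 and Pknox2 were detected on all 6 arrays by their brightest probe, Pbx3 on 5, Pknox1 on 1 and Pbx4 on 0. Meis2, which also acts in lens development, read 10.27 ± 0.13 in wild type and 10.35 ± 0.18 in knockout (n = 3 each; log2 change 0.08, SE 0.14, limma adjusted p = 0.962). Meis1 read 9.40 ± 0.28 and 9.34 ± 0.26, and Pbx2 10.90 ± 0.26 and 10.76 ± 0.34. Of 5 tested, 2 were higher and 3 lower in knockout, where 50.4% of everything tested was higher. Of these 5, 0 passed, where 0.157% of everything tested did.

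Of 9 upstream regulators of Hox genes, 4 were detected on 0 arrays and 2 on all 6. Of all probes, 45.9% were detected on 0 arrays and 29.1% on all 6, shares per probe and not per gene. The caudal genes Cdx1, Cdx2 and Cdx4, which turn on trunk Hox genes, were detected on 0 arrays, and Egr2, which drives Hox genes in the hindbrain, on wild type arrays alone, 1 of 3. Rarb, a retinoic acid receptor, was detected on all 6 arrays and read 5.58, 6.02 and 6.68 in wild type and 7.19, 7.01 and 6.13 in knockout, which overlap (log2 change 0.69, SE 0.42, limma adjusted p = 0.825). Gdf11 was likewise detected on all 6 arrays, at 6.94 in wild type and 6.86 in knockout. Rara was detected on 2 wild type arrays and 1 knockout array, Cyp26a1 on 2 wild type arrays and Rarg on 0. Of 3 tested, 0 passed, where 0.157% of everything tested did.

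Genes that keep Hox clusters silent or open were expressed in both genotypes. Polycomb proteins silence Hox genes through methylation of histone H3 and compaction. Of 14 Polycomb genes with a probe, 11 were detected on all 6 arrays by at least 1 probe, where 29.1% of all probes were. The smallest p in the list was that of Bmi1, a subunit of the ubiquitin ligase complex, which read 6.31, 7.90 and 8.06 in wild type and 6.70, 6.71 and 6.41 in knockout, which overlap (log2 change -0.82, SE 0.47, limma adjusted p = 0.798). Suz12, a subunit of the methyltransferase complex, followed with -0.24 (SE 0.26, limma adjusted p = 0.929). The methyltransferase Ezh2 read 9.26 ± 0.13 in wild type and 9.21 ± 0.08 in knockout, its partner Eed 8.91 ± 0.09 and 8.81 ± 0.53, and Rnf2, the ubiquitin ligase, 9.21 ± 0.14 and 9.29 ± 0.16 (n = 3 each). Of 11 tested, 3 were higher and 8 lower in knockout, with a median of -0.05, where 50.4% of everything tested was higher. Of these 11, 0 passed, where 0.157% of everything tested did. Of the MLL complex and H3K27 demethylase genes, which oppose Polycomb, all 7 tested were lower in knockout, where 50.4% of everything tested was higher. Their changes ran from -0.50 to -0.01, the latter with an SE of 0.17. Their median was -0.22 beside 0.002 over all tested. None of these 7 passed, and Dpy30, an MLL complex subunit, had the smallest p (log2 change -0.50, SE 0.22, limma adjusted p = 0.67).

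Markers of other tissues differed in detection. Of all probes, 29.1% were detected on all 6 arrays and 45.9% on 0, shares per probe and not per gene. Limb and lateral plate markers were detected on 0 arrays in 5 of 6 cases. The exception was Tbx5, which is also expressed in the dorsal eye, at 5.67, 6.53 and 5.15 in wild type and 6.36, 7.44 and 8.41 in knockout (log2 change 1.62, SE 0.57, limma adjusted p = 0.552). Of 15 head mesenchyme and neural crest markers, 10 were detected on all 6 arrays, and 4 on 0, among them the migrating crest markers Sox10 and Foxd3. Of the 11 tested, 8 were higher and 3 lower in knockout, where 50.4% of everything tested was higher. An unadjusted limma p under 0.05 was reached by 5 of them, and by 7.44% of everything tested. After adjustment 0 passed, where 0.157% of everything tested did. Tfap2b, a crest and ectoderm factor, read 9.72, 9.23 and 9.25 in wild type and 10.74, 10.49 and 10.07 in knockout, without overlap (log2 change 1.03, SE 0.21, limma adjusted p = 0.171). The log2 change was 0.93 for the collagen Col3a1 and 0.83 for the arch homeobox gene Dlx2, and -0.98 for the receptor Erbb3 and -0.82 for the mesenchymal receptor Pdgfra. The summed intensity of the list was 2340 to 2979 in wild type and 2943 to 3777 in knockout, while its mean log2 value was 6.56 to 6.65 and 6.53 to 6.91. The part of these markers in the Hox values was not tested. In tissue with several cell types, fewer cells of a type and less RNA per cell cannot be told apart.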

How the data were processed

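Lens placode or surface ectoderm of 6 embryos was measured on 6 Illumina arrays, with cDNA amplified from the RNA of each embryo and labelled with biotin, per the labels' protocols. The authors exported the deposited table with GenomeStudio, per the submitters' processing notes (version not given in the sources used here). It holds linear intensity per probe, a count of beads averaged (16 to 80 for Hox probes), a standard error between beads and a detection p-value, deposited in steps of 1 in 1603. A second deposited table of the authors' normalized, background-subtracted intensity served as an alternative, as log2 of the value floored at 0 plus 16.

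The neqc function of limma 3.58.1 (R 4.3.3) applied normexp background correction, an offset of 16, quantile normalization and log2. Probes detected on at least 3 arrays were kept (19381), the probe with the highest mean stood for a gene, and 14686 genes and unnamed probes were fitted with lmFit and eBayes with a variance trend. On simulated data of 14686 genes with 200 changed, 29% of changes of 1 and 93.4% of changes of 2 log2 units were recovered. The number of arrays limits precision. Symbols are from GEO's platform annotation, and all 52 probes matched RefSeq genes of GRCm38.p6 by Entrez identifier. Promoter windows are from RefSeq, GRCm38.p6.

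The members and lists were chosen with earlier results of these data known. Named genes are those detected on at least 2 arrays of a genotype, other Hox genes with any detection, and at most 4 genes per other list with the smallest p. Genes of other lists named for being detected or at background, Pdgfra beyond the 4 of its list, and all neighbours, were chosen after their values were seen.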

Additional observations from a re-analysis of the deposited data

How the results depend on the processing

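No Hox gene passed in any setting run, and none of 89 values of the 6 named genes under the alternatives had an adjusted p below 0.761. Over all genes, 23 calls became 6 with no filter, 69 with a stricter filter, 1 with the replicate block, 0 to 5 with each array left out in turn and 0 without both arrays numbered 3, a fit of 4 arrays added once the values were known. Same-numbered deviations correlated at -0.05, -0.02 and -0.04, beside -0.05 to 0.09 for the other pairings. Correlations over the whole array cannot settle whether the replicate numbers pair the samples. The block changed no Hox call. It lowered the SE of Hoxa9 from 0.69 to 0.28 (limma adjusted p = 0.946) and raised that of the other named Hox genes. Signs turned for Hoxb4 with median scaling (-0.009, with a median over all tested of -0.15), for Hoxa9 with an array left out (-0.076 to 0.7) and for Hoxd9 with an array left out (-0.09 to 0.023), and the cause was not tested. With the authors' normalized, background-subtracted values Hoxb1 was -0.44 (SE 0.32) in place of -0.15 (SE 0.13). At a detection p under 0.01 on 2 arrays, 1 Hox probe was detected in wild type and 1 in knockout, with 1.33 and 1.67 per array. At a detection p under 0.05 on any array, 9 and 10 were. Leaving out arrays gave 5 to 6 per wild type and 5.5 to 7 per knockout array. Most Hox signals lie at background, where no change can be measured.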

Other observations

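The 5 Hox genes of the Hoxb cluster with weak or single-array detection (Hoxb1, Hoxb2, Hoxb3, Hoxb5 and Hoxb7) did not all share 1 bright array. Hoxb1 read highest on wild type 3 (5.23), Hoxb2 on knockout 1 (5.21), Hoxb3 on wild type 3 (5.49), and Hoxb5 and Hoxb7 on knockout 3 (6.29 and 5.23).

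Zic1, a zinc finger gene of neural and periocular tissue, is in the list of hindbrain and neural markers. It read 7.73, 7.11 and 5.94 in wild type and 9.07, 8.33 and 7.64 in knockout, which overlap (log2 change 1.42, SE 0.50, limma adjusted p = 0.554). Its highest array, knockout 1, had 6 detected Hox probes, as had wild type 1 and wild type 3. Gbx2, a gene of the anterior hindbrain, read 6.64 on knockout 2 and 5.75 on knockout 3 against 4.96 to 5.13 on the other 4 arrays, and knockout 2 had 5 detected Hox probes. Of the 7 genes of this list 3 were tested, all 3 higher in knockout, where 50.4% of everything tested was higher, and 0 passed. Nes went the other way, detected on 2 wild type and 0 knockout arrays (means 5.16 and 4.95). Egr2 was detected on 1 wild type array, and Sox1 and Fabp7 on 0 arrays.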
